A study of Saccharomyces cerevisiae with 21 samples.

Results

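Late glucose starvation of budding yeast was examined by ribosome profiling, in which the stretches of mRNA that ribosomes shield from nuclease (ribosome-protected fragments, RPFs) are sequenced. The late group holds 3 libraries, 1 each from cells kept for 10, 20 and 30 min in medium without glucose, and was compared with the 2 libraries of growing log phase cells of the same time course. These are 5 of the 11 libraries of that time course read here and of 19 libraries with count tables in the series. The libraries were chosen by their names alone, and the 3 late times were treated as a single group, so a value that changes between 10 and 30 min adds to the spread of the group. All cells were of strain BY4741 (MATa his3Δ1 leu2Δ0 met15Δ0 ura3Δ0) and grew in synthetic complete (SC) medium with glucose. Starved cells were filtered, rinsed and moved to SC medium without glucose, while the log phase cells were the portion of a culture left with glucose. All were collected by vacuum filtration and frozen, and no library had a pretreatment with cycloheximide, which arrests translating ribosomes. The filtration also takes the log phase cells out of glucose for a short time, which limits them as an unstarved state. No source used here says that the libraries of a group came from separate cultures, so the p-values measure the spread between libraries, which may be technical.

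Yeast prefers glucose, and its sudden loss stops most initiation of translation within minutes while ribosomes already on an mRNA may finish or stay. A library reports 2 things about a gene. The number of RPF reads, relative to all other genes, follows how many of the ribosomes sit on its mRNAs. The polarity score, a number between -1 (reads massed at the start of the coding sequence) and 1 (reads massed at its end), tells where they sit. A change in counts here is always relative to the other genes of the library. Fewer mRNAs and fewer ribosomes per mRNA cannot be told apart from RPF counts alone. The series also lists RNA samples of this time course, which were not read here.

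The libraries differed widely in depth. The late libraries held 71816, 73074 and 72950 reads at 10, 20 and 30 min, against 3523240 and 94585 in log replicates 1 and 2, so that log replicate 1 was 48.5 times as deep as the mean late library. Of the 11 libraries, 4 held over 1000000 reads (replicate 1 of log phase and of 1, 5 and 15 min) and are called deep here, and the other 7, the late ones among them, are called shallow. The share of mitochondrially encoded genes was 0.0682% to 0.212% in the late libraries, against 0.00292% and 0.151% in log replicates 1 and 2, so the deep and the shallow log library differed in more than depth. Of 7 listed genes of mating type a, STE2, STE6 and BAR1 were read in every late and log library, with 21 or more reads each. MFA1, MFA2, AGA2 and ASG7 were thinly read, with 1 to 7 reads each in a late library and 0 to 4 in log replicate 2. The 4 alpha genes held at most 2 reads together in any late library. The 4 deleted genes held 0.00278% to 0.00547% of late reads and 0.0107% and 0.00634% of log reads.

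Ribosomes sat further toward the 3′ end in late starvation. Over 362 genes with more than 25 reads in each of the 5 libraries, the median polarity score was 0.128, 0.104 and 0.146 at 10, 20 and 30 min, against 0.0655 and 0.0597 in log replicates 1 and 2. All 3 late medians lay above both log medians, and the late mean of 0.126 ± 0.0211 (SD, n = 3) exceeded the log mean of 0.0626 ± 0.00411 (SD, n = 2) by 0.0632. An exact permutation test over the libraries gave p = 0.2 (two-sided), which is the smallest p that 3 against 2 libraries allow. Against the shallow log replicate alone the difference was 0.0661, so it was no smaller at matched depth. Of the 362 genes, 269 had a higher mean score in the late group, and 115 (31.8%) had all 3 late scores above both log scores, against 18 (4.97%) with all 3 below. Genes with a score above 0 made up 87.0%, 82.0% and 87.8% of the 362 in the late libraries and 83.4% and 71.0% in the log libraries.

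The late scores did not continue upward from the earlier times. Over the same genes the median was 0.165 and 0.139 at 1 min, 0.165 and 0.137 at 5 min, and 0.141 and 0.130 at 15 min, with the deep library first in each pair. The lowest starved library was that of 20 min, and the late median nearest to the 1 min values was that of 30 min. In the time course plot the share of reads in ribosomal protein genes, described below, also differed from log phase at 1 min, with 14.4% and 13.4%. Unlike the median polarity, this share lay further from log phase at 5 min (12.6% and 11.3%) and at 30 min (10.9%). The share did not fall steadily, with 13.3% at 10 min, 13.4% and 11.4% at 15 min and 12.8% at 20 min.

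**Figure D1:**
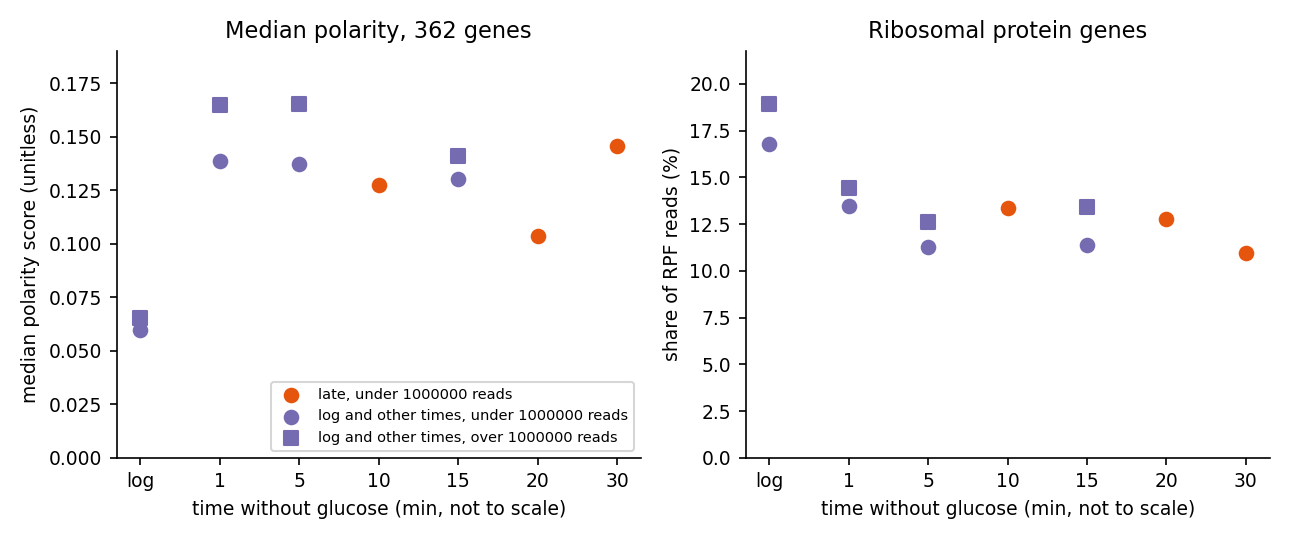
Median polarity score over 362 genes (left) and share of RPF reads in genes of cytosolic ribosomal proteins in percent (right) in each of 11 libraries, in order of time without glucose; circles are shallow and squares deep libraries, late ones in orange. The late medians of 0.104 to 0.146 lie above the log values of 0.0597 and 0.0655, and the late shares of 10.9% to 13.3% below the log shares of 16.8% and 18.9%.

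By limma, which tests each gene's scores with a spread shared across genes, 13 genes had higher polarity in the late group (3.59% of 362 tested) and 1 had lower polarity (0.276%), at an adjusted p under 0.05. The genes that rose include members of glycolysis and fermentation, of the ribosome and of elongation. Of 17 tested genes of glycolysis and fermentation, 2 rose and 0 fell. The median change of the 17 was -0.0036, beside 0.0485 over all genes tested, and 8 of them had a positive change. PDC1, whose product pyruvate decarboxylase turns pyruvate into acetaldehyde in fermentation, had scores of 0.151, 0.142 and 0.181 at 10, 20 and 30 min, against 0.0220 and 0.0123 in log phase. This was the rise with the smallest adjusted p (0.141, standard error 0.0228, adjusted p = 0.00182), on at least 2040 reads per library. The gene lies on chromosome XII from 232390 to 234081 on the minus strand, as 1 coding exon (positions here are those of build R64). GPM1, the phosphoglycerate mutase gene (chromosome XI, 163642 to 164385), had 0.302, 0.233 and 0.331 in the late libraries and 0.162 and 0.119 in log phase, a rise of 0.148 (adjusted p = 0.0166). The late and log scores overlapped in neither gene. TKL1, the transketolase gene of the pentose phosphate pathway (chromosome XVI, 692796 to 694838), rose by 0.154 (adjusted p = 0.0335), with 0.0998, 0.161 and 0.181 against -0.0343 and 0.0210.

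Among 102 ribosomal protein genes tested, 5 rose and 0 fell in polarity, and their median change was 0.0363, beside 0.0485 for the 362 genes together. RPL3, which encodes a large subunit protein at the peptidyl transferase centre (chromosome XV, 444686 to 445849), had late scores of 0.147, 0.162 and 0.135, against 0.0117 and -0.0207 in log phase (rise 0.153, standard error 0.0291, adjusted p = 0.00768). RPL5, whose product binds 5S rRNA, had 0.245, 0.233 and 0.219 against 0.149 and 0.0354 (rise 0.140, adjusted p = 0.0345). RPL12B, of the ribosomal stalk base, had 0.133, 0.163 and 0.129 against -0.0619 and -0.0710 (rise 0.208, adjusted p = 0.0253). In each of these genes the late scores lay above the log scores. RPL1A and RPL1B, near-identical copies that can exchange reads, rose by 0.196 and 0.213 with the deep log library below 0 and the shallow log library at 0.0881 and 0.0581.

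SSB2, which encodes a chaperone that holds nascent chains at the ribosome, rose by 0.129 (adjusted p = 0.0334), with scores of 0.122, 0.163 and 0.190 in late starvation and 0.0442 and 0.0148 in log phase. EFT2, one of a pair of genes for elongation factor 2, which moves the ribosome along the mRNA, rose by 0.117 (adjusted p = 0.0353). Its near-identical copy EFT1, with which it can exchange reads, changed by 0.0863 (adjusted p = 0.102). REA1, a very long gene of 14733 coding bases whose product drives late steps of large subunit assembly, had 0.0713, 0.148 and 0.0960 in the late libraries, against -0.0981 and -0.176 in log phase (rise 0.242, adjusted p = 0.0334). HOM6, the homoserine dehydrogenase gene of threonine and methionine synthesis, had 0.310, 0.230 and 0.332 against 0.0386 and 0.0516 (rise 0.245, adjusted p = 0.0253). In HOM6 and REA1 the late scores lay above both log scores, on as few as 46 and 37 reads in a library.

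**Figure D2:**
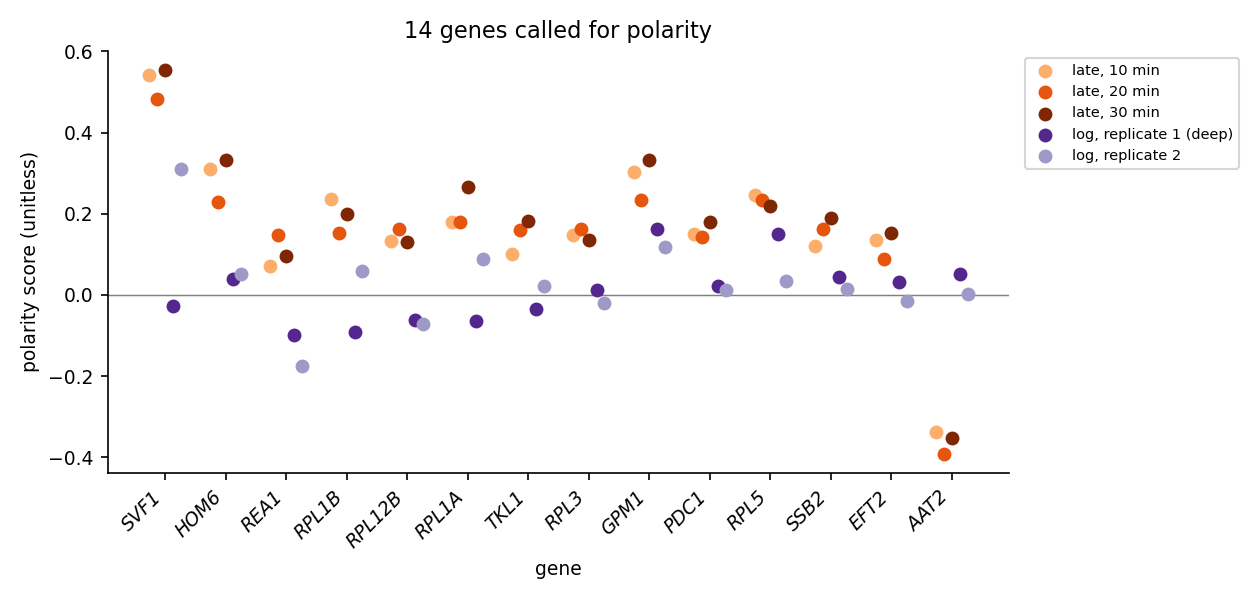
Polarity score (no unit) of the 14 genes called by limma, ordered by change, with 1 point per library: 3 late libraries, then 2 log libraries, for each gene. For every gene drawn the 3 late points lie on the same side of both log points, above them in 13 genes and below them in AAT2.

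In SVF1 and AAT2 the scores differed widely between the deep and the shallow library of 15 min. SVF1, linked to survival of oxidative stress, had late scores of 0.542, 0.483 and 0.554, against -0.0285 in the deep and 0.311 in the shallow log library. At 15 min it had 0.522 in the shallow and 0.0487 in the deep library. AAT2, the cytosolic aspartate aminotransferase gene, was the only called fall (-0.387, adjusted p = 0.000619), with -0.337, -0.391 and -0.352 in late starvation against 0.0517 and 0.00318 in log phase. At 15 min it had -0.496 in the shallow and 0.213 in the deep library, so only the shallow score lay below log phase. With depth as a term it had an adjusted p of 0.150.

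The polarity calls changed with the model and with the libraries used. Centring the scores on the median of each library removes a shift that its genes share. With that centring the median change over the 362 genes was -0.0147. All 13 rises were called again when the 11 libraries were fitted together with deep or shallow as a block, where 67 genes were higher and 2 lower. No gene was called higher without log replicate 1, without the 20 min or the 30 min library, with scores centred on the median of each library, or without the link between spread and read depth. Without the 10 min library 1 was, and without log replicate 2 there were 2. The 13 genes all kept a positive difference without log replicate 1, where PDC1 had an adjusted p of 0.0637.

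Of 12 genes that the paper names and that could be tested for polarity, PDC1 alone was called. PGK1 and CDC19, glycolytic genes for phosphoglycerate kinase and pyruvate kinase, differed by -0.0268 and -0.00751 (adjusted p = 0.630 and 0.895), and their late and log scores overlapped. PGI1 and PFK1, which act earlier in glycolysis, differed by -0.00916 and 0.0491, and ACT1, the actin gene, by 0.0193. The long gene FAS1 of fatty acid synthesis had late scores of 0.0160, 0.0486 and 0.0450, above -0.0118 and -0.0294 in log phase (difference 0.0571, adjusted p = 0.282). ACC1, the acetyl-CoA carboxylase gene, also had its late scores of 0.0218, 0.0254 and 0.0216 above both log scores, whereas URA2 of pyrimidine synthesis differed by -0.0188. PAB1, whose product coats poly(A) tails, had 0.0834, 0.157 and 0.177 against 0.00492 and 0.0590 (adjusted p = 0.170). HSP104, whose product pulls aggregated proteins apart, had -0.0660, -0.351 and -0.0847 against -0.0614 and -0.000531, a difference of -0.136 (adjusted p = 0.350) on as few as 29 reads. RPS8A, a small subunit gene, had -0.0224, -0.0426 and 0.155 against -0.0609 and -0.0898 (difference 0.105, adjusted p = 0.365).

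In RPF counts the clearest difference was a fall of genes for cytosolic ribosomal proteins, the building blocks of the ribosome and among the most heavily translated genes of a growing cell. By edgeR's quasi-likelihood test, 42 genes were lower (3.71% of 1131 tested) and 21 higher (1.86%) in the late group at an adjusted p under 0.05, and 39 of the 42 encode ribosomal proteins. DESeq2 called 67 lower and 14 higher on the same genes. Of 135 ribosomal protein genes tested, 39 were lower and 0 higher, with a median log2 change of -0.64 against 0.05 over all genes tested. In 108 of the 135 all late libraries lay below both log libraries, and in 0 above, whereas over all tested genes 18.7% lay below and 16.1% above. The change of single genes ran from -1.43 to 0.25, and only RPL33B, RPL41B, RPL43B and RPP1B were positive, without passing the test. The large subunit had 25 of 80 genes lower (median -0.62) and the small subunit 14 of 55 (median -0.69).

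All late libraries are shallow, and the falls were also seen against the shallow log library. The median over the 135 genes was -0.50 against the shallow log library alone. With the depth block 66 of 136 tested ribosomal protein genes were lower and 0 higher, and 39 of the 42 genes called lower were called again. The count of calls moved with each library: 17, 6 and 9 genes were lower without the 10, 20 or 30 min library, 11 without log replicate 1 and 114 without log replicate 2, and each of the 42 kept its direction without log replicate 1. All genes of ribosomal proteins together took 13.3% of reads at 10 min (95% Wilson interval 13.1% to 13.6%), 12.8% at 20 min (12.5% to 13.02%) and 10.9% at 30 min (10.7% to 11.2%). In log phase they took 18.9% (18.9% to 18.97%) in replicate 1 and 16.8% (16.6% to 17.1%) in replicate 2. The late shares were all lower, with a difference of the means of -5.52 percentage points, and of -4.46 points against log replicate 2 (exact permutation test, two-sided p = 0.2, the smallest possible). The intervals cover counting error only, and the log libraries differed from each other by more than that.

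The transcription factor Rap1 binds upstream of most ribosomal protein genes of yeast, and the stretches that match its motif are shown because nearly all called falls belong to this one regulated group. The motif ACCCNNACA was searched on both strands from 500 to 101 bases before the start codon, in R64 sequence from RefSeq. It occurred in 54 of 138 ribosomal protein genes (39.1%), in 17 of the 39 called lower (43.6%) and in 36 of 96 that were tested and not called (37.5%). The share was 5.05% over 5743 genes with such a window and 8.78% over 1128 tested genes, ribosomal protein genes included. None of the 21 genes called higher had a match, nor had the 3 other genes called lower, but these groups are too small to tell from such shares. Of the 8 largest falls 3 genes held 4 matches, all on the strand of the gene, given here 5′ to 3′ with 25 flanking bases and the motif in capitals.
RPL42B, chrVIII:383078-383136, minus strand, 360 bases before the start codon: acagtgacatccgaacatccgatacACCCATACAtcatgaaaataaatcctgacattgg
RPL35B, chrIV:217291-217349, plus strand, 284 bases before: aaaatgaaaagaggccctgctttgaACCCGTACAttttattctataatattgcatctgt
RPL35B, chrIV:217396-217454, plus strand, 179 bases before: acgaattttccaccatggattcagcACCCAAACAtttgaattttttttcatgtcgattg
RPS24A, chrV:305962-306020, plus strand, 336 bases before: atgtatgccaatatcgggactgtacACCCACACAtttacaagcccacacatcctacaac
A match is a description of letters and not a measured binding site, and for the other named genes it says only that these letters were not found in this window.

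RPL42B (chromosome VIII, 381990 to 382751, 2 coding exons), which encodes a large subunit protein, had the largest fall. It held 219.7, 203 and 127 CPM (counts per 1000000 reads, with TMM scaling of the library totals) at 10, 20 and 30 min, against 568 and 391 in log phase, a log2 change of -1.43 (standard error 0.286, adjusted p = 0.0218). Its copy RPL42A (chromosome XIV, 331322 to 332154) held 343, 514 and 253 CPM against 1016 and 655, a change of -1.20 (adjusted p = 0.0460). In both copies all late libraries lay below the log libraries, and log replicate 1 lay well above log replicate 2. RPL35B, with the pair of motif matches, held 206, 365 and 183 CPM against 778 and 465 (change -1.34, adjusted p = 0.0441, and -0.90 with adjusted p = 0.218 without log replicate 1).

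In 4 other falls the log replicates lay closer together. RPL16B (chromosome XIV, 493956 to 495001, 2 coding exons) held 1139.6, 1014 and 675 CPM in late starvation and 2472 and 2334 in log phase, a change of -1.35 (standard error 0.199, adjusted p = 0.00442). It passed the test against log replicate 2 alone as well (-1.32, adjusted p = 0.000133). RPP2B (chromosome IV, 1239492 to 1239824), an acidic protein of the stalk that recruits elongation factors, held 467, 568 and 394 CPM against 1387 and 1130.2 (change -1.41, adjusted p = 0.00518). RPS24A and RPS24B, copies for the same small subunit protein, fell alike, with 604, 581 and 478 CPM against 1389 and 1299 and with 247, 257 and 225 CPM against 573 and 592. Their changes were -1.28 and -1.26 (adjusted p = 0.00442 and 0.0120). None of these 4 genes overlapped between the groups. The late libraries of RPS24A and RPS24B lay close together, while RPL16B was lowest at 30 min.

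**Figure D3:**
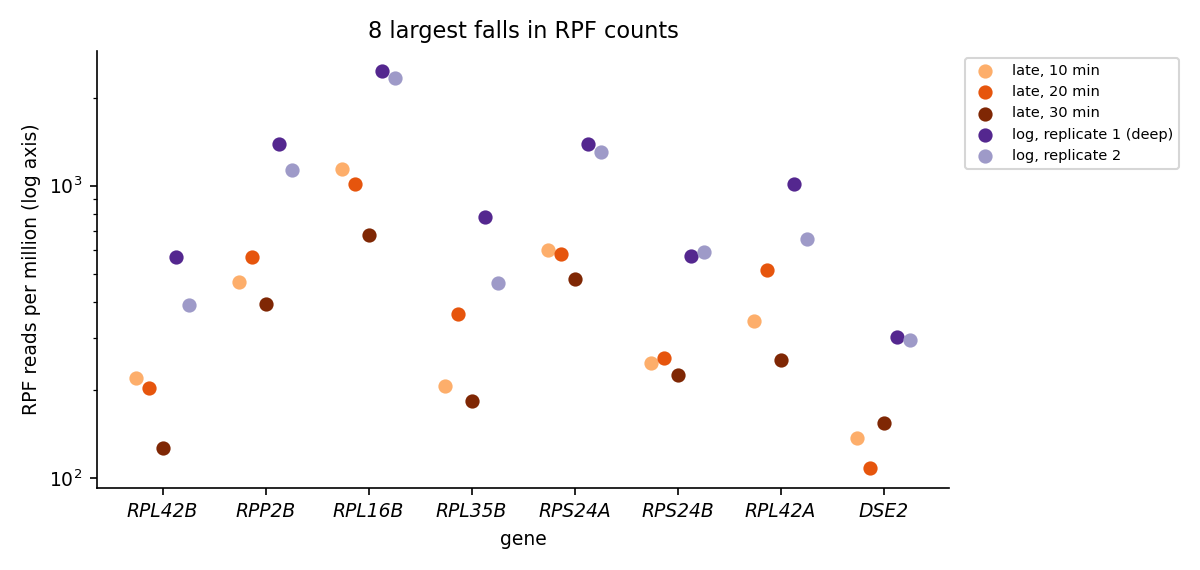
RPF level in CPM (TMM-scaled, log axis) of the 8 genes with the largest falls, 1 point per library, with the 3 late libraries left of the 2 log libraries for each gene. Every late point lies below both log points of its gene, as in RPL16B with 675 to 1139.6 against 2334 and 2472.

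Many ribosomal proteins come from a pair of gene copies, and over 57 pairs with both copies tested the changes of the copies differed by a median of 0.23 on the log2 scale. Of these pairs, both were called lower in 4 (RPL6, RPL20, RPL42 and RPS24), 1 copy in 24 and neither in 29. Some pairs with 1 copy called were nearly equal, such as RPS14A and RPS14B at -0.77 and -0.78. The widest gaps included RPL16, where RPL16A changed by -0.11 beside -1.35 for RPL16B, RPS22B by -0.03 beside -1.10 for RPS22A, and RPP1B by 0.25 beside -0.82 for RPP1A. RPL33A and RPL33B changed by -0.19 and 0.05, and RPS8A, a gene the paper names, and RPS8B by -0.25 and -0.23. Differences within pairs were not tested. The study's methods do not state how the genome alignment placed reads that match both copies, so near-identical copies may exchange reads.

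The 3 falls outside the ribosomal proteins include a pair of ribosome-bound factors. STM1, whose product clamps idle ribosomes in starved yeast, held 1304, 1379 and 1463 CPM in late starvation, against 2074 and 2134 in log phase (change -0.61, adjusted p = 0.0389). HYP2 encodes eIF5A, which helps stalled peptide bonds form, and held 1593, 1433 and 1336 CPM against 2445 and 1965 (change -0.61, adjusted p = 0.0482). These were the 2 genes called lower among 15 tested of translation elongation and termination, whose median change was -0.14, with 0 higher. TEF1, TEF2, EFT1 and EFT2, the elongation factor genes with the most reads, had changes of -0.11, -0.11, -0.15 and -0.15, none of which passed. DSE2 (chromosome VIII, 385510 to 386487), a secreted protein of daughter cells that helps them separate, held 137, 108 and 155 CPM against 304 and 296 (change -1.18, adjusted p = 0.0337). Its late values rest on 8 to 11 reads a library, against 28 reads in log replicate 2.

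The 21 rises in counts were of another kind, since 19 of them were also more than 2-fold higher in the shallow 15 min than in the shallow log library, and only 1 in the deep 15 min against the deep log library. Their median log2 difference was 1.55 between the shallow and -0.0023 between the deep libraries of 15 min and log phase. Between the shallow and the deep log library it was 0.78. For the 42 falls the same medians were -0.86, -0.81 and -0.16. With the depth block 7 of the 21 rises were called again (BTN2, BUL1, ESA1, GYL1, NSE3, AAN1 and CDC73), and 11 without log replicate 1. Over all genes the depth block gave 13 higher and 80 lower of 2010 tested. Without the 20 min or the 30 min library 8 genes were higher, and without log replicate 2 there were 50. The part of depth in the rises was not tested beyond these values.

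SRB8 (chromosome III, 254371 to 258654), a subunit of the Mediator kinase module, held 1142, 848 and 1563 CPM (here without TMM scaling) at 10, 20 and 30 min. It held 2508 and 38.3 CPM in the shallow and the deep 15 min library, and 106 and 50.0 CPM in the shallow and the deep log library. Its log2 change was 4.26 (standard error 0.401, adjusted p = 0.000294), but 1.09 (adjusted p = 0.225) with the depth block. YCR099C, an open reading frame known by its systematic name, held 306, 246 and 274 CPM in late starvation, 249 and 15.3 in the shallow and the deep 15 min library, and 31.7 and 9.65 in the shallow and the deep log library. Its change against log phase was 4.64 (adjusted p = 0.000294), or 2.05 (adjusted p = 0.0670) with the depth block, on 18 to 22 late reads and 3 reads in log replicate 2. CSM4, a gene of meiotic chromosome movement, had a polarity of -0.611 in each late library and in the shallow libraries of 1, 5 and 15 min, and of -0.610 in the shallow log library. The mean position of its reads was thus nearly the same in the 7 shallow libraries, while in the deep libraries of log phase and of 1, 5 and 15 min the score was -0.568, -0.623, -0.521 and -0.540. Its change in counts was 3.91, without log replicate 1 it was 1.29 (adjusted p = 0.264), and with the depth block 0.30 (adjusted p = 0.908). MRS1, of mitochondrial intron splicing, and LCD1, of the DNA damage checkpoint, changed by 3.43 and 3.14, by 1.17 and 0.90 with the depth block (adjusted p = 0.440 and 0.468), and held 13.9 and 19.8 CPM in the deep 15 min library.

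Of the rises that kept a call with the depth block, BUL1, an adaptor that directs a ubiquitin ligase to membrane transporters (chromosome XIII, 815651 to 818581), held 418, 972 and 631 unscaled CPM in late starvation. The shallow and deep 15 min libraries held 249 and 51.6 CPM, and those of log phase 84.6 and 48.8. ESA1, the catalytic subunit of the histone acetyltransferase NuA4, held 139, 698 and 398 CPM in late starvation against 31.7 and 30.7. GYL1, which acts with Rab GTPase activators in secretion, held 599, 931 and 1755 CPM against 222 and 55.9. In all 3 the late libraries lay above every log library. The deep 15 min library stayed near log phase, at 36.5 CPM in ESA1 and 66.4 in GYL1. The polarity of these 3 genes also differed between the shallow and the deep 15 min library, and the late scores lay nearer to the shallow library. The score was 0.676, 0.745 and 0.695 in late starvation for BUL1, 0.509, 0.536 and 0.484 for ESA1, and 0.226, 0.219 and 0.218 for GYL1. For BUL1, ESA1 and GYL1 the shallow 15 min library had 0.750, 0.537 and 0.215, and the deep one 0.0519, 0.368 and 0.0592. The shallow log library had 0.256, -0.356 and 0.133, on 8, 3 and 21 reads, and the deep one 0.0445, 0.281 and 0.0463. In ESA1 the shallow log score was thus the lowest of those given. The log2 changes of BUL1, ESA1 and GYL1 were 3.59, 3.73 and 3.44, but 2.11, 1.79 and 1.47 with the depth block (adjusted p = 3.44e-06, 0.0101 and 0.00590). NSE3 of the Smc5-Smc6 complex, CDC73 of the Paf1 complex and AAN1 changed by 2.49, 2.18 and 2.34, and by 1.23, 1.37 and 1.52 with the depth block (adjusted p = 0.00496, 0.0228 and 0.00138). Their deep 15 min libraries held 104, 66.2 and 95.6 CPM against 88.3, 62.7 and 104 in the deep log library.

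**Figure D4:**
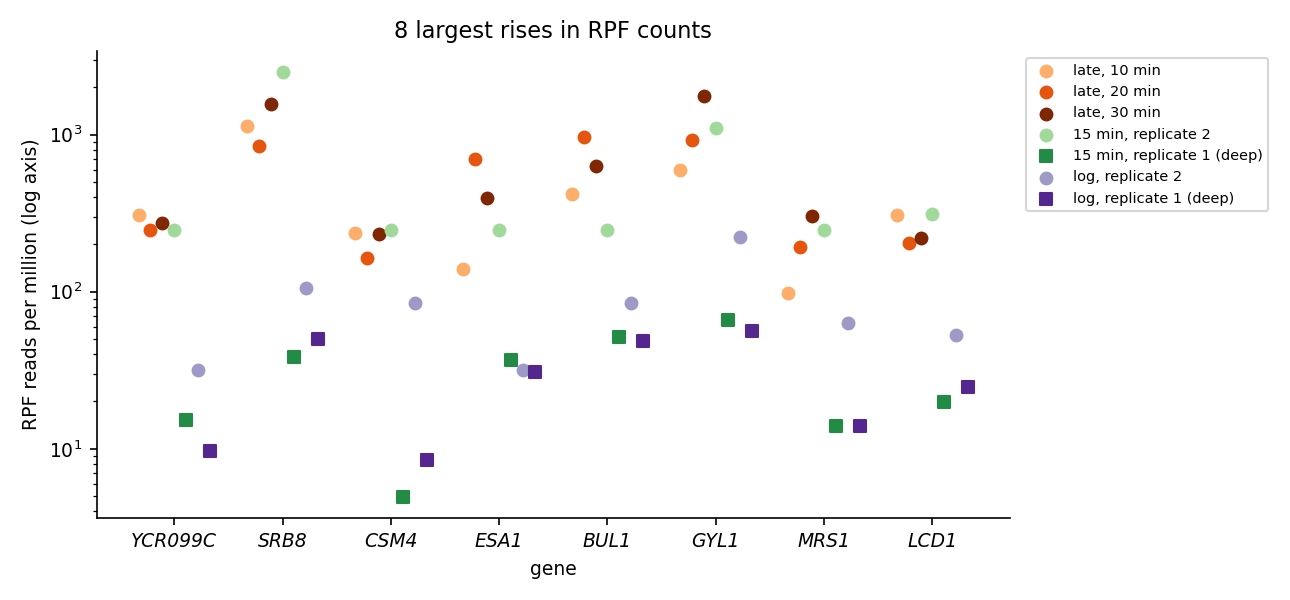
RPF level in CPM (without TMM scaling, log axis) of the 8 genes with the largest rises, 1 point per library: 3 late, 2 of 15 min and 2 log libraries, with squares for deep ones. The late points and the shallow 15 min point lie high together, as for SRB8 with 848 to 2508, while the deep 15 min point lies near the log points, as for SRB8 with 38.3.

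BTN2 differed from the other rises in this respect. Its product gathers misfolded proteins under stress, and it held 55.7, 438 and 164 unscaled CPM at 10, 20 and 30 min. At 15 min it held 114 and 176 CPM in the shallow and the deep library, against 52.9 and 31.8 in those of log phase. At that time it stood above log phase at both depths. The late values rest on 4, 32 and 12 reads, against 11 in the shallow 15 min and 5 in the shallow log library. BTN2 at 10 min lay near the shallow log library, and its late values differed up to 7.86-fold, highest at 20 min. Its log2 change was 2.68 (adjusted p = 0.0436) and 2.56 with the depth block (adjusted p = 0.000699). It was the only one of 18 tested genes of heat shock proteins and chaperones that passed, with 0 lower and a median of 0.15. HSP104 held 563, 622 and 577 CPM against 375 and 306, all late libraries above both log libraries (change 0.76, adjusted p = 0.0801). YDJ1, a partner of Hsp70, changed by 0.65 (adjusted p = 0.104) and HSP10, of the mitochondrial chaperonin, by -0.74 (adjusted p = 0.143).

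At this depth most stress genes could not be tested. In a list of 36 genes of the general stress response, 6 were tested and 0 called, with a median of 0.08. SSA4, an inducible Hsp70, changed by 1.29 (adjusted p = 0.139), with 8, 12 and 11 reads in the late libraries and 8 in log replicate 2. The 36 genes together held 0.184% of reads at 10 min (95% Wilson interval 0.155% to 0.218%), 0.183% at 20 min (0.155% to 0.217%) and 0.234% at 30 min (0.202% to 0.272%), against 0.170% (0.166% to 0.174%) and 0.121% (0.1003% to 0.145%) in log replicates 1 and 2. The late shares were higher by 0.0552 percentage points in the mean (exact permutation test, two-sided p = 0.2, the smallest possible), and the lower late intervals overlapped that of log replicate 1. UBI4, the polyubiquitin gene, supplied 15, 16 and 51 of the late reads, and without it the shares were 0.163%, 0.161% and 0.164% in late starvation and 0.149% and 0.106% in log phase.

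HSP30, a stress protein of the plasma membrane, was not tested for want of reads. It had 0, 4 and 7 reads at 10, 20 and 30 min, against 9 and 0 in log replicates 1 and 2. This came to 54.7 and 96.0 unscaled CPM at 20 and 30 min and to 29.9 CPM in the deep 15 min library, against 2.55 CPM in the deep log library. A count of 0 allows up to 41.8 CPM at 10 min and 31.7 CPM in log replicate 2, counting error only.

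Other groups of genes showed few calls. Of 18 tested genes of glycolysis and fermentation 0 were called, with a median of 0.06, and these genes took 21.4%, 18.1% and 21.4% of late reads against 19.8% and 19.2% of log reads. PDC1 itself held 31895, 27581 and 32569.5 CPM against 30131 and 30167, so that its polarity rose while its level differed by 0.03 on the log2 scale (adjusted p = 0.960). Ribosome biogenesis, the set of factors that assemble ribosomes, had 62 genes tested and 0 called, with a median of 0.19, which was 0.024 with the depth block and -0.018 without log replicate 1. MAK21 came nearest (change 0.89, adjusted p = 0.0563). Of 46 genes of amino acid biosynthesis 1 was higher and 0 lower (median 0.09). It was CPA1, a subunit of the carbamoyl phosphate synthase for arginine, with 522, 352 and 450.0 CPM against 197 and 190.1 (change 1.18, adjusted p = 0.0243). CPA1 held 187 CPM in the deep 15 min library, and with the depth block its change was 0.45 (adjusted p = 0.516).

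None of 24 translation initiation factor genes passed (median 0.04), with TIF1, a copy of the eIF4A genes, nearest at -0.56 (adjusted p = 0.0637). With the depth block TIF1 was called lower (-0.65, adjusted p = 0.00442), and the median over the initiation factors was -0.021. Neither did any of 21 aminoacyl-tRNA synthetase genes (median 0.14), 26 proteasome genes (0.01), 24 genes of fatty acid and sterol synthesis (-0.08), 13 of the vacuolar proton ATPase (-0.22), 11 of the TCA cycle (0.16, and -0.022 with the depth block) and 9 histone genes (-0.34). For gluconeogenesis, the glyoxylate cycle and ethanol use 5 genes were tested and 0 called (median 0.04). ACS1, an acetyl-CoA synthetase gene, held 467, 1379 and 998 CPM against 23.3 and 412, a change of 2.68 (adjusted p = 0.142). It was called higher with the depth block (1.19, adjusted p = 0.00506), and its change was 1.18 without log replicate 1. Its log replicates already lay far apart in counts. Its polarity was -0.401 in each late library and in the shallow log library, and -0.313 in the deep log library. As in CSM4, the mean position of its reads was thus nearly the same in these shallow libraries. Hexose transporters had 3 of 10 genes tested and 0 called, with HXT1 at 0.33, HXT2 at 0.48 and HXT3 at 0.21, and their share of reads was 0.187%, 0.187% and 0.207% against 0.144% and 0.158%. For trehalose and glycogen metabolism 5 of 18 genes were tested and 0 called, all with a positive change (median 0.38). Genes of autophagy and of peroxisomes were too thinly read to be tested. Over all 1131 genes 618 had a positive change.

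Gene length went with the change in counts. Outside ribosomal proteins, the median log2 change was -0.25 for 77 genes of up to 600 coding nt, -0.18 for 141 of 601 to 1000 nt, -0.0047 for 258 of 1001 to 1500 nt, 0.13 for 178 of 1501 to 2000 nt, 0.27 for 173 of 2001 to 3000 nt and 0.40 for 167 genes over 3000 nt. Across these 994 genes, which share libraries and are not independent, Spearman's correlation of change with length was 0.49. It was 0.23 against the shallow log library alone, and 0.28 between the shallow and the deep log library. In the longest bin the late mean exceeded the shallow log library by 0.19 and the deep one by 0.43, and the shallow log library exceeded the deep one by 0.27. Of 92 genes over 4000 nt, 35 had all late libraries above both log libraries and 0 below, against 16.1% above and 18.7% below over all genes tested. Their median was 0.43, or 0.20 with the depth block. Only SRB8 and RSE1 were called higher among them, where 1.86% of all genes were, and neither was called with the depth block (adjusted p = 0.225 and 0.667).

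Polarity followed length less. Its median change over all tested genes was 0.0203 in 91 genes of up to 600 nt, between 0.0455 and 0.0727 in the longer bins, and 0.0566 in 39 genes over 3000 nt (Spearman's correlation 0.22 over 361 genes). Between the shallow and the deep log library the median difference was negative in each bin, from -0.0294 to -0.00471, so this difference and the late rise had opposite signs. Most of the shortest genes tested encode ribosomal proteins, and 17 that do not had a median change of -0.0599. For these 17 genes the median was -0.0578 against the deep and -0.00725 against the shallow log library.

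**Figure D5:**
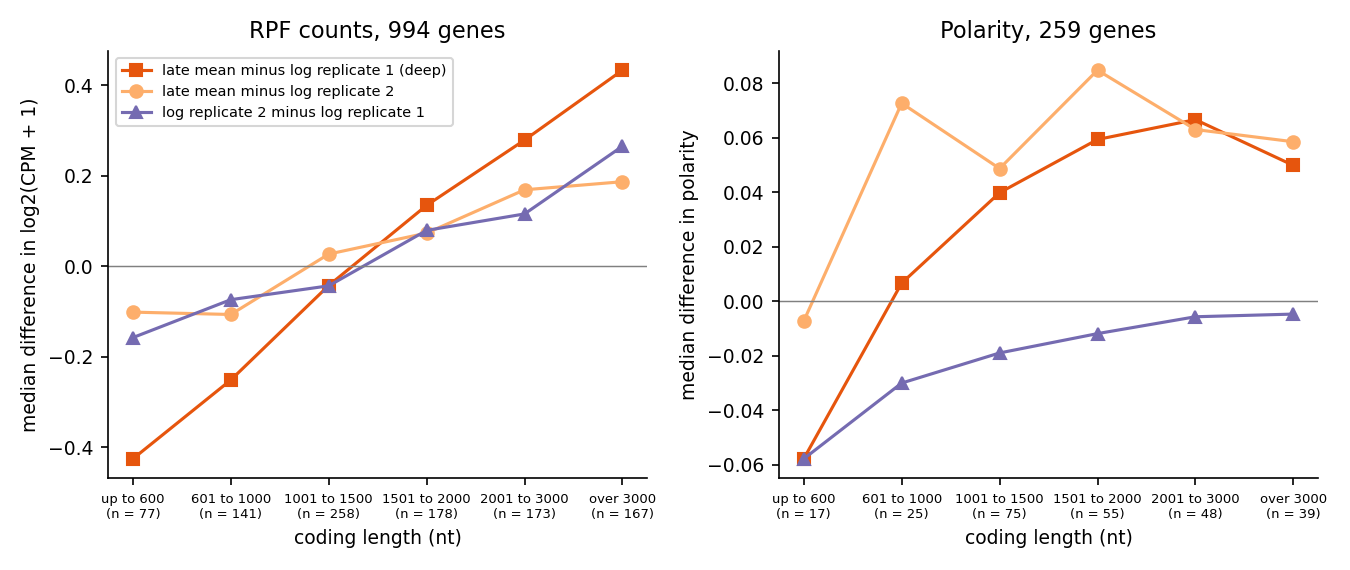
Median difference in log2(CPM + 1) (left, 994 genes) and in polarity score (right, 259 genes) by coding length, outside ribosomal protein genes, for late mean minus deep log, late mean minus shallow log, and shallow minus deep log; n is the number of genes per bin. In counts all 3 lines climb from the second bin to the last, and in polarity only the 2 late lines are above 0 in every bin over 600 nt.

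The 3 late libraries resembled each other about as much as they resembled shallow libraries of other conditions. Across the 707 genes read more than 10 times in every one of the 11 libraries, Spearman's correlation was 0.88 to 0.91 between late libraries, 0.85 to 0.91 between a late library and log replicate 2, and 0.80 to 0.87 with log replicate 1. Between late libraries the chi-square per degree of freedom was 1.66 to 2.19, so none is a copy of another. Of 674 genes with at least 20 reads in a late library, 14 differed 4-fold or more between the highest and the lowest late time (counts under 3 set to 3), 8 of them highest at 20 min and 6 at 30 min. PGA3, a reductase-like membrane protein, had 11, 15 and 183 reads at 10, 20 and 30 min. TSL1, a regulatory subunit of trehalose synthesis, had 6, 9 and 44 reads. With 1 library per time these are values without a test, and the rule that picked them was set after the data were seen.

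Against 15 min of starvation, which lies between the late times and has 2 libraries of 5041833 and 96478 reads, no gene was called in either direction. For counts 0 of 1122 genes (0%) passed by edgeR and 0 by DESeq2, with 39 at an unadjusted p under 0.05, and for polarity 0 of 369 passed by limma, with 21 at an unadjusted p under 0.05. Ribosomal protein genes had a median log2 difference of -0.02 between late and 15 min libraries, against 0.03 over all genes, and the median difference in polarity over all genes was -0.0120. Genes of ribosomal proteins took 10.9% to 13.3% of late reads and 13.4% and 11.4% of reads in the deep and the shallow 15 min library. Without the shallow 15 min replicate 2, 41 genes were higher and 23 lower in counts and 2 and 2 in polarity, and without the deep replicate 1 there were 3 and 1 in counts and 0 in polarity. A missed threshold does not show that the late and 15 min libraries were alike: in simulated data for the comparison with log phase, 89.2% of the changes of 4-fold were recovered in counts but 48.4% of those of 2-fold.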

How the data were processed

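For the libraries without cycloheximide the authors trimmed reads with Cutadapt, removed reads under 17 nt, noncoding RNA and PCR duplicates (by molecular identifier), aligned with Bowtie to R64 and counted reads per gene with HTSeq, as the study's methods state. Versions of these tools were not given in the sources used here, and replicates were not pooled. Deposited sheets hold raw RPF counts and the authors' polarity score per gene, neither normalized between libraries. Labels name only pools of the time course, so libraries were placed by sheet name. Genes absent from a sheet were set to a count of 0, and 5753 of 5758 genes matched the R64 annotation.

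The quasi-likelihood test of edgeR 4.0.16, after filterByExpr and TMM scaling, served for counts, with DESeq2 1.42.0 beside it, and limma 3.58.1 (trend on read depth, over 25 reads per gene in each library of the fit) for polarity, in R 4.3.3, with Benjamini-Hochberg adjustment over all genes tested. Other steps used Python 3.11.15 and scipy 1.17.1. Tested on simulated data, 5.07% of count calls were false over 1131 genes and 2.57% of polarity calls over 362. In polarity, 96.7% of shifts of 0.3 were found and 27.3% of shifts of 0.1. The simulated data held no bias between deep and shallow libraries and no polarity shift shared by all genes of a library. The rates therefore do not cover false calls that such differences would make.

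Genes named are the 8 largest rises and falls in counts (at least 20 CPM in the higher group, no overlap), the 6 largest for polarity (at least 100 reads per library), up to 4 members per list by adjusted p, and the genes the paper names. A withheld item is not reported here. Others are examples picked after their values were seen. The comparison, lists and rules were chosen with earlier results of these data known. Alternatives were other scaling, filters, blocks and leaving out each library, and the depth block was added after seeing the data.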

Additional observations from a re-analysis of the deposited data

How the results depend on the processing

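The direction of the median polarity and of both shares of reads held under each alternative: leaving out 1 library gave differences of 0.0509 to 0.0728 in median polarity, -6.58 to -4.46 percentage points for ribosomal protein genes and 0.0305 to 0.0800 for stress genes. Of 793 recomputed values of genes called in counts, 504 stayed called, 289 missed the threshold and 0 changed sign; for polarity these were 57, 118 and 0 of 175. The counts of calls moved. For RPF counts against log phase (21 higher, 42 lower) there were 82 and 80 with no filter on low counts, 8 and 18 with at least 10 reads in each library, 3 higher with 11 libraries in one fit, 67 lower by DESeq2, 13 and 80 with the depth block, and 8 to 50 and 6 to 114 with 1 library left out. For polarity (13 higher, 1 lower) there were 6 and 2 with over 10 reads, 0 lower with over 100 reads and with 11 libraries, 0 higher with centred scores and with no trend, 67 and 2 with the depth block, and 0 to 2 and 0 to 1 with 1 library left out. Against 15 min (0 each way), counts gave 35 and 13 with no filter and 3 higher with the depth block, and 0 to 41 and 0 to 23 with 1 library left out, and polarity 0 to 2 each way. Except where fewer samples or genes explain it by construction, the cause was not tested.

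The late libraries all carry number 1, so the numbers cannot pair them with both log libraries. Differences between replicates 2 and 1 of log phase, 1, 5 and 15 min correlated at 0.84 to 0.89 over 707 genes, and the numbers coincide with depth there, but the late libraries are shallow. With the sheet number as a replicate block, counts against log phase gave 57 higher and 80 lower, polarity 0 and 0, counts against 15 min 48 and 13, and polarity against 15 min 1 lower. With the pool as a block, counts gave 12 and 16. Each late time has 1 library, and a count of 0 in a late library allows up to 41.8 CPM.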
